A study of Mus musculus with 5 samples.

Results

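Genes of the cytotoxic effector programme were described in the T and natural killer (NK) cells of murine small cell lung cancer (SCLC). The 10 genes were Gzma, Gzmb, Gzmk, Gzmm, Prf1, Nkg7, Ctsw, Ccl5, Ifng and Fasl, chosen by symbol and not by a measured value. They are 10 of the 32589 genes in the count tables, and each was found once in all 5 tables. Lung tumours of Rb1 fl/fl x Trp53 fl/fl mice, in which inhaled adenoviral Cre depletes both tumour suppressors, were profiled by scRNA-seq (sequencing of the RNA of single cells), and each of 5 groups gave 1 library. All groups share this genotype and the induction of tumours. Dosing began once a lesion was seen by µCT and was repeated every 3 days. The groups were vehicle (PBS), anti-PD-1 (an antibody that blocks an inhibitory receptor of T cells, 10 mg/kg), ERBB2i (mubritinib, an oral inhibitor of the receptor tyrosine kinase ERBB2, 10 mg/kg), the combination of both agents, and a combination library labelled as in response, here combination in response. Tumour growth was about 6 months in all groups. Strain, age and the number of animals per library are not given in the labels. For this model the paper's methods state a C57BL/6 background and mice at least 6 weeks old.

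Cytotoxic lymphocytes store granzymes, which are serine proteases, together with the pore-forming protein perforin in secretory granules and release them towards a target cell. Fas ligand kills through a death receptor, and interferon-γ and the chemokine CCL5 act on other immune and tumour cells. NK cells carry this programme before they meet a target, whereas CD8 T cells acquire most of it after activation and naive CD4 T cells lack most of it.

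Classes of cells were set by counts of unique molecular identifiers (UMIs) of marker genes and not by any of the 10 genes. T cells had at least 1 UMI of Cd3e, Cd3d or Cd3g and none of Rag2 or Dntt, and were called Cd8a-positive or Cd4-positive by that gene. A T cell with both was counted in both classes. NK cells had at least 1 UMI of Ncr1, Klrb1c or Klre1 and none of the Cd3 genes. The NK gate held 335 cells in ERBB2i and 115 in combination, but only 12 in vehicle, 4 in anti-PD-1 and 3 in combination in response. The Cd8a-positive class held 457 cells in ERBB2i, 163 in combination, 485 in anti-PD-1 and 859 in combination in response, and the Cd4-positive class held 274, 66, 412 and 776 in the same order. Vehicle held 3 and 4 such cells. No ratio was formed for a class under 20 cells.

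The libraries differed in what else they held. Retained cells numbered 7213 to 22143 per library, with a median of 1204 UMIs in combination in response and of 2282 to 6189 in the others. T cells with a UMI of Rag2 or Dntt, genes of immature thymocytes, numbered 5259 in combination in response and 3157 in anti-PD-1, against 26 in ERBB2i and 8 in combination. No barcode of combination in response passed the neuroendocrine tumour gate, although all libraries carry the same tumour label, against 15349 in ERBB2i, 17696 in combination and 4552 in anti-PD-1. Cd4 and Cd8a were found together in 362 T cells of combination in response and 125 of anti-PD-1, against 5 in ERBB2i and 0 in combination. ERBB2i and combination shared 782 barcode sequences, 2.97% of the smaller library. Barcodes in the lymphocyte gates also carried tumour transcripts. A level of the neuroendocrine panel of at least 30% of the tumour median of the library was found in 50.7% of NK, 33.0% of Cd8a-positive and 31.8% of Cd4-positive cells of ERBB2i, and in 72.2%, 54.0% and 57.6% of those of combination. In anti-PD-1 the shares were 18.6% and 10.7% of Cd8a-positive and Cd4-positive cells. Because tumour UMIs enter the total of a class, the ratios below were also formed without these barcodes, an alternative chosen after the data had been seen, as were the comparisons with vehicle, the removal of single barcodes and the stages of T cells with Rag2 or Dntt.

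The gates were checked against markers that did not define them. All 11 genes of the NK list were found in the NK class of both libraries, at a summed level of 4070 UMIs per 1000000 UMIs of the class (CPM) in ERBB2i and 1542 in combination. The 8-gene T cell list summed to 705 and 336 CPM there, against 3993 in Cd8a-positive cells of ERBB2i. Cd8b1, the partner of Cd8a, was at 835 CPM in Cd8a-positive and 51.2 CPM in Cd4-positive cells of ERBB2i, but at 1390 and 822 CPM in those of anti-PD-1.

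The genes lie at 9 loci, given here in the mouse build GRCm38.p6 from RefSeq. Gzma (ENSMUSG00000023132, chr13:113093824-113100981) and Gzmk (ENSMUSG00000042385, chr13:113171630-113180965) are neighbours, 70648 bases apart on the minus strand. Gzmb (ENSMUSG00000015437) is at chr14:56258836-56262334, Gzmm (ENSMUSG00000054206) at chr10:79689020-79695261, Prf1 (ENSMUSG00000037202) at chr10:61297751-61304684 and Ifng (ENSMUSG00000055170) at chr10:118441046-118445894. Nkg7 (ENSMUSG00000004612) is at chr7:43437138-43438246, Ctsw (ENSMUSG00000024910) at chr19:5465043-5468628, Ccl5 (ENSMUSG00000035042) at chr11:83525778-83530518 and Fasl (ENSMUSG00000000817) at chr1:161780691-161788495. The annotated spans of Gzma, Ctsw and Ccl5 overlap Cdc20b, Fibp and Gm32650, and whether reads were counted by strand is not stated in the labels or the methods. The 250 bases before the start site in RefSeq's promoter table are shown for 3 granzymes and perforin, on which the comparisons of NK and T cells turn, with letters of motifs in capitals. The motifs, searched on both strands, were TGTGGT (RUNX factors), GGTGTG (T-box factors) and TGANTCA (AP-1). For Prf1 that start site lies inside the annotated span given above, so the window overlaps its first bases.
Gzma, chr13:113100982-113101231, minus strand: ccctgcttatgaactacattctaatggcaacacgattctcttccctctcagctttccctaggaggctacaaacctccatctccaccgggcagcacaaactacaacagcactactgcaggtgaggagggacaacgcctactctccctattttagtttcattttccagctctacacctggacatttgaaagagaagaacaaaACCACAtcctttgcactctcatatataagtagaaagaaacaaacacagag
Gzmb, chr14:56262335-56262584, minus strand: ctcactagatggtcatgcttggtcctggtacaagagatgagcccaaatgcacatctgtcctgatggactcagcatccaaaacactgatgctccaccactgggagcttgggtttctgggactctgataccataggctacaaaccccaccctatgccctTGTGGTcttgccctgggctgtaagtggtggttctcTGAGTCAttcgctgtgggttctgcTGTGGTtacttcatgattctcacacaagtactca
Gzmk, chr13:113180966-113181215, minus strand: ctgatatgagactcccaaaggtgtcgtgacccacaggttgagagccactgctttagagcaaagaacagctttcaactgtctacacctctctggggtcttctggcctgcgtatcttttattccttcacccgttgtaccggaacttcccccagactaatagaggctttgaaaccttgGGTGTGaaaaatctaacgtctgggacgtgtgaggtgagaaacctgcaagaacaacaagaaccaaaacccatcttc
Prf1, chr10:61297586-61297835, plus strand: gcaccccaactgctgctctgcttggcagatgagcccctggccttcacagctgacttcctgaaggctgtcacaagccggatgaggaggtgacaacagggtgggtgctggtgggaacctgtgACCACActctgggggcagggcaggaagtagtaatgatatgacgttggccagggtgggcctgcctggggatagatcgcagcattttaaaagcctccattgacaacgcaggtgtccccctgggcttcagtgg
Gzma and Prf1 each hold 1 RUNX match (50 and 130 bases before the start), Gzmb holds 2 (93 and 34 bases) with an AP-1 match 58 bases before the start, and Gzmk holds 1 T-box match 75 bases before it. Of the other genes with a promoter sequence, Nkg7 holds a RUNX and a T-box match, Fasl a T-box match, the 2 Gzmm starts a RUNX and a T-box match, and Ifng none. Of 32851 promoters of this length, 14.0% hold the RUNX letters, 16.3% the T-box letters and 6.75% the AP-1 letters, so a match describes the sequence only.

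Granzyme A, a tryptase of the granules, was at its highest level in NK cells. Gzma stood at 2188 CPM (2084 to 2295) in NK cells of ERBB2i, with the exact Poisson 95% interval in parentheses here and below, and at 969 CPM (873 to 1072) in those of combination. In Cd8a-positive cells it was at 236 CPM (206 to 269) in ERBB2i, 615 CPM (543 to 692) in combination, 315 CPM (278 to 356) in anti-PD-1 and 43.1 CPM (32.2 to 56.5) in combination in response. In Cd4-positive cells the levels were 92.6, 12.4, 37.0 and 32.2 CPM in the same order. The NK intervals of both libraries lay above those of each Cd8a-positive and Cd4-positive class. Such intervals cover counting error only, and with 1 library per group no difference between groups has a replicate check. After each cell was thinned to 500 UMIs, a Gzma UMI was found in 46.3% (40.8% to 51.8%) of NK cells in ERBB2i (exact Clopper-Pearson interval), in 1.75% (0.759% to 3.42%) of Cd8a-positive cells, and in 0.254% of tumour-gated barcodes, which should lack the gene. Median depths before thinning were 1395, 1524 and 2707 UMIs.

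Granzyme B, an aspartate-specific protease that activates caspases, did not follow Gzma across classes. Gzmb was at 249.8 CPM (216 to 288) in NK cells of ERBB2i and 62.0 CPM (39.7 to 92.3) in those of combination. Cd8a-positive cells held 147 CPM (123 to 173) in ERBB2i, 373 CPM (318 to 435) in combination, 55.8 CPM (40.8 to 74.4) in anti-PD-1 and 9.94 CPM (5.13 to 17.4) in combination in response. NK cells thus had the higher level in ERBB2i and Cd8a-positive cells in combination. In Cd4-positive cells Gzmb was at 24.9 CPM in combination, 59.1 in ERBB2i and 4.48 in combination in response. In anti-PD-1 no Gzmb UMI was counted in 412 Cd4-positive cells, which allows up to 4.83 CPM.

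Granzyme K, like granzyme A a tryptase, was a transcript of T cells. Gzmk was at 2.62 CPM (0.317 to 9.45) in NK cells of ERBB2i from 2 UMIs, and no UMI was counted in NK cells of combination, where 3 UMIs would be 7.75 CPM. Cd8a-positive cells held 357 CPM (319.6 to 397) in ERBB2i, 139 CPM (106 to 178) in combination, 54.6 CPM (39.8 to 73.0) in anti-PD-1 and 13.2 CPM (7.57 to 21.5) in combination in response. Cd4-positive cells held 309 CPM (263 to 362) in ERBB2i, close to the Cd8a-positive level, and 68.4 CPM (34.2 to 122) in combination. The thinned share with a Gzmk UMI was 15.3% (12.1% to 19.0%) of Cd8a-positive and 9.49% (6.29% to 13.6%) of Cd4-positive cells in ERBB2i, against 0.597% of NK cells and 0.182% of tumour-gated barcodes.

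Granzyme M was scarce in every class. Gzmm gave 23 UMIs in Cd8a-positive cells of ERBB2i, or 24.3 CPM (15.4 to 36.4), and 10 UMIs or fewer in each other NK, Cd8a-positive and Cd4-positive class. Another 28 Gzmm UMIs of ERBB2i lay in T cells with neither a Cd4 nor a Cd8a UMI. Barcodes that passed the tumour gate but no B cell or myeloid gate held 54.1% of the Gzmm UMIs of ERBB2i, 64.6% of those of combination and 94.4% of those of vehicle. Over all tumour-gated barcodes of vehicle the level was 1.46 CPM.

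Perforin and the granule protein NKG7, which is needed for granule release, were found in both lineages. Prf1 was at 364 CPM (322 to 409) in NK cells of ERBB2i and 82.7 CPM (56.6 to 117) in those of combination, and in Cd8a-positive cells at 102 CPM (83.0 to 125) in ERBB2i, 66.0 CPM (44.2 to 94.8) in combination, 13.3 CPM (6.66 to 23.9) in anti-PD-1 and 23.2 CPM (15.4 to 33.5) in combination in response. Nkg7 was at 1637 CPM (1548 to 1731) in NK cells of ERBB2i and 504 CPM (436 to 579.7) in those of combination. Cd8a-positive cells held 2051 CPM (1961 to 2144) of Nkg7 in ERBB2i, 1368 CPM (1261 to 1482) in combination, 411 CPM (368 to 457) in anti-PD-1 and 362 CPM (329 to 397) in combination in response. Cd4-positive cells of ERBB2i still held 942 CPM of Nkg7 and 49.3 CPM of Prf1, and those of combination 267 CPM of Nkg7 and no Prf1 UMI, which allows up to 18.7 CPM. Ctsw, which encodes the cysteine protease cathepsin W of NK and CD8 T cells, had the smallest ratio of highest to lowest level over these 6 classes. Ctsw lay at 394 and 181 CPM in NK cells of ERBB2i and combination, and at 465, 351, 189 and 232 CPM in Cd8a-positive cells of ERBB2i, combination, anti-PD-1 and combination in response.

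Among classes of at least 20 cells, the secreted and membrane-bound ligands were highest in ERBB2i. Ccl5 was at 8472 CPM (8288 to 8659.5) in Cd8a-positive cells of ERBB2i, 3430.2 CPM (3259 to 3608) in those of combination, 899.8 CPM (836 to 967) in those of anti-PD-1 and 681 CPM (635 to 729) in those of combination in response. NK cells held 3892 CPM (3754 to 4035) of Ccl5 in ERBB2i and 1927 CPM (1792 to 2071) in combination, and Cd4-positive cells of ERBB2i held 3641 CPM (3477 to 3811). A Ccl5 UMI was found in 65.2% (60.6% to 69.6%) of Cd8a-positive and 57.6% (52.1% to 63.0%) of NK cells of ERBB2i after thinning, against 4.06% of tumour-gated barcodes. Interferon-γ and Fas ligand transcripts were sparse. Ifng in Cd8a-positive cells was at 83.3 CPM (66.0 to 104) in ERBB2i, 43.2 CPM (26.0 to 67.5) in combination, 13.2 CPM (7.57 to 21.5) in combination in response and 3.64 CPM (0.750 to 10.6) in anti-PD-1, from 3 UMIs. Fasl followed the same order for the first pair, with 57.0 CPM (42.8 to 74.3) in ERBB2i and 31.9 CPM (17.4 to 53.5) in combination, and stood at 4.97 and 6.06 CPM in combination in response and anti-PD-1. Ifng and Fasl in NK cells of ERBB2i were at 35.3 CPM (23.3 to 51.4) and 65.4 CPM (48.5 to 86.2). The intervals of ERBB2i and combination overlapped for Ifng and for Fasl in Cd8a-positive cells.

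**Figure D1:**
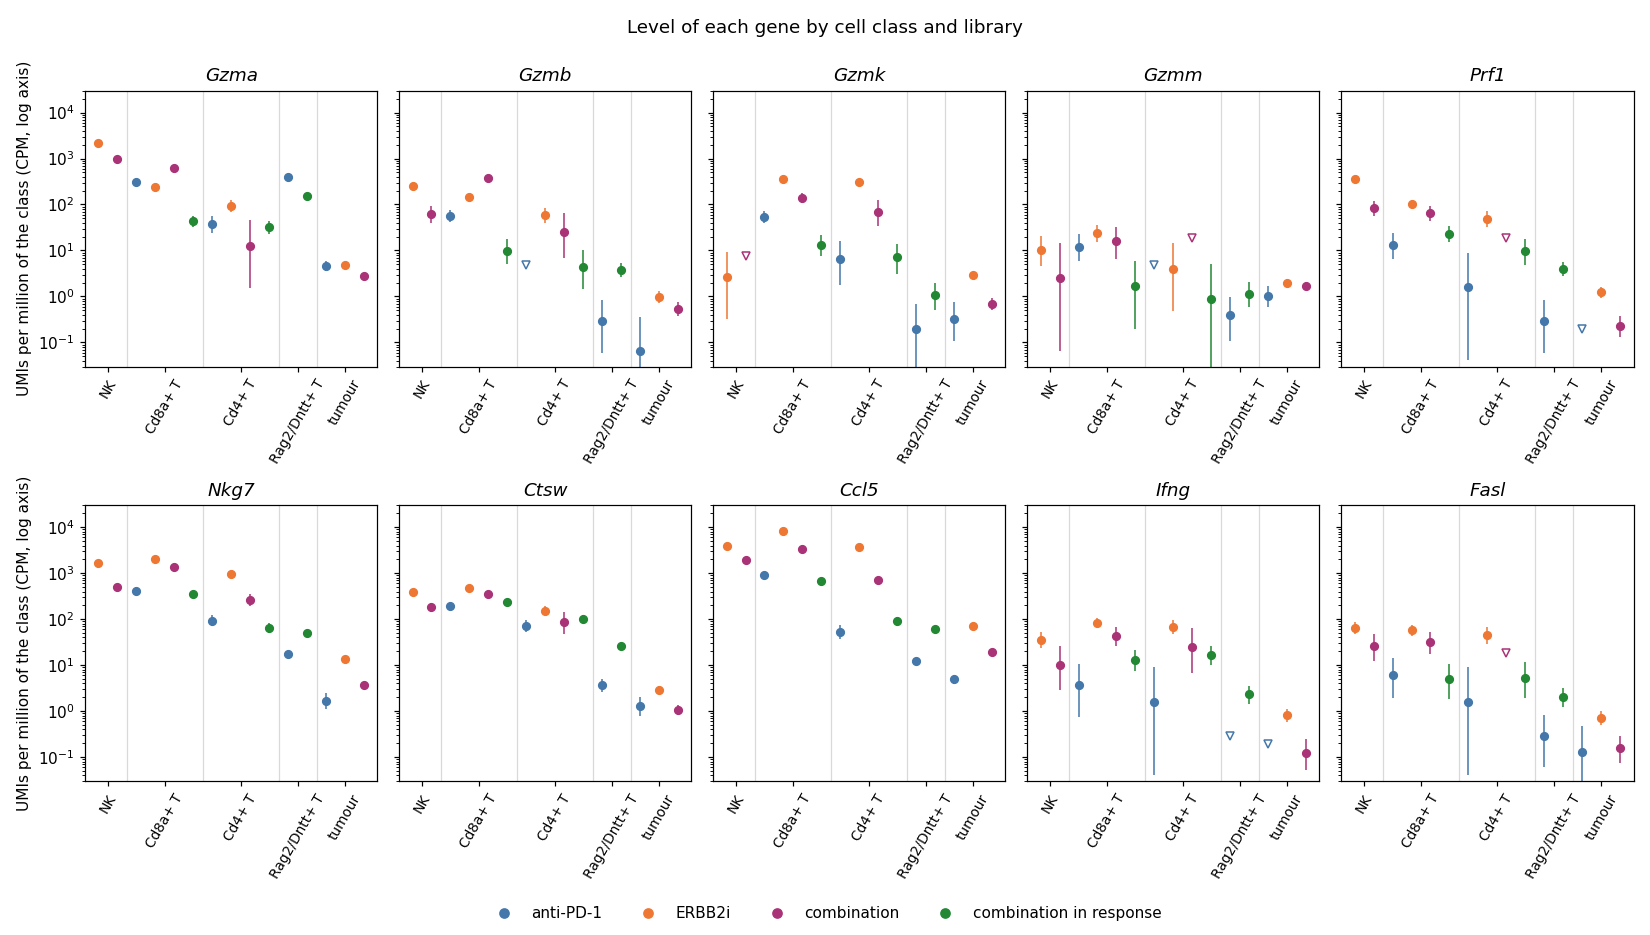
Levels of the 10 genes in CPM on a log axis, by cell class and library, with exact Poisson 95% intervals as bars and an open downward triangle at the level of 3 UMIs where 0 were counted. Gzma was highest in NK cells of ERBB2i (2188 CPM), Gzmk was near 0 in NK cells and present in T cells, and every gene was at 71.1 CPM (Ccl5 in ERBB2i) or less in tumour-gated barcodes.

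The 10 genes together took 11995 CPM in Cd8a-positive and 8838 CPM in NK cells of ERBB2i, and 6432 and 3764 CPM in those of combination. Cd8a-positive cells of combination in response and anti-PD-1 held 1383 and 1961 CPM. In anti-PD-1 a single barcode of 4091 UMIs held 194 Gzma, 172 Ccl5, 42 Gzmb, 36 Nkg7 and 17 Gzmk UMIs of that sum. The few cells of vehicle were not silent, with 21 Gzma and 22 Ccl5 UMIs in 12 NK cells and 362 Ccl5 UMIs in 3 Cd8a-positive cells. In tumour-gated barcodes the sum was 101 CPM in ERBB2i, 30.4 CPM in combination and 14.2 CPM in anti-PD-1. The genes were divided differently over the cells of ERBB2i. NK cells held 64.3% of Gzma UMIs and 41.1% of Prf1 UMIs of that library, but 9.7% of Ccl5 and 0.1% of Gzmk UMIs. T cells with neither a Cd4 nor a Cd8a UMI held 43.7% of Gzmk and 38.3% of Ccl5 UMIs, more than T cells with Cd8a only, which held 24.6% and 25.8%. These T cells without either UMI enter no comparison below.

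NK cells were set against Cd8a-positive T cells of the same library to ask which genes separate the innate from the adaptive killer lineage. Here and below, a gene was tested for a 2-fold difference where both classes together held at least 20 UMIs of it. In ERBB2i the log2 ratio of CPM was 3.21 (3.01 to 3.42) for Gzma and 1.83 (1.49 to 2.18) for Prf1, with exact conditional 95% intervals, and these were the 2 genes of 10 at least 2-fold higher in NK cells (9.09% of 9921 genes tested). At least 2-fold lower were 4 of 10 (6.31% of genes tested), namely Gzmk at -7.09 (-10.14 to -5.23), Gzmm at -1.21 (-2.58 to -0.00), Ccl5 at -1.12 (-1.18 to -1.06) and Ifng at -1.24 (-1.93 to -0.59). Nkg7, Ctsw and Fasl differed by -0.32, -0.24 and 0.20, and Gzmb by 0.77. The median over the 10 genes was -0.28 against 0.17 over all genes tested. Tumour transcripts were more abundant in the NK class, with a neuroendocrine panel of 3716 CPM against 2074 CPM. Without barcodes of high panel level, 165 NK and 306 Cd8a-positive cells remained, and Gzma was at 4.31 (4.05 to 4.59), Gzmb at 2.28 (1.85 to 2.73), Prf1 at 2.68 (2.27 to 3.10) and Fasl at 1.17 (0.41 to 1.93), the 4 of 10 genes at least 2-fold higher (7.56% of genes tested). Gzmk at -6.64 and Ifng at -1.08 were at least 2-fold lower (8.24%), and Ccl5 was at -0.13. The part of tumour transcripts in the remaining cells was not tested.

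In combination, where Gzmm was not tested, 0 of 9 genes were at least 2-fold higher in NK cells (6.47% of genes tested) and 4 of 9 were at least 2-fold lower (7.19%). Gzma was at 0.66 (0.43 to 0.89) and Prf1 at 0.32 (-0.45 to 1.10), whereas Gzmb was at -2.59 (-3.27 to -1.97), Nkg7 at -1.44 (-1.68 to -1.21) and Ifng at -2.07 (-4.08 to -0.48). Gzmk gave 0 against 61 UMIs, a log2 ratio of -4.16 or lower when 0 is set to 3 UMIs of the class. Gzmb lay on opposite sides of 0 in the 2 libraries. With at least 2 UMIs of the gate genes, which left 40 NK cells in combination, Gzma was at 2.34 (2.10 to 2.58), Prf1 at 1.94 (1.13 to 2.75), Nkg7 at 0.04 (-0.23 to 0.31) and Gzmb at -1.06 (-1.81 to -0.39). The ratios of all 4 genes were higher than with the first gate, and 3 of 8 genes were at least 2-fold higher in NK cells (7.01% of genes tested) and 2 lower (9.92%). At low neuroendocrine level, with 32 NK cells, 2 of 6 were higher (9.33%) and 1 lower (15.6%), so the count of 0 higher genes did not hold in either setting. With only the gene-number filter and 206 NK cells, 0 of 10 were higher (899 of 9133 genes tested) and 6 lower (752 of 9133). With that filter and low level, and 102 NK cells, 0 of 9 were higher (867 of 6196) and 5 lower (1158 of 6196). With gates set after thinning, 1 of 6 was higher (211 of 2063), and with under 2 panel UMIs 1 of 5 (77 of 973). The panel stood at 4653 CPM in NK and 2973 CPM in Cd8a-positive cells, and myeloid markers summed to 1039 CPM in NK cells of combination against 157 CPM in those of ERBB2i.

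**Figure D2:**
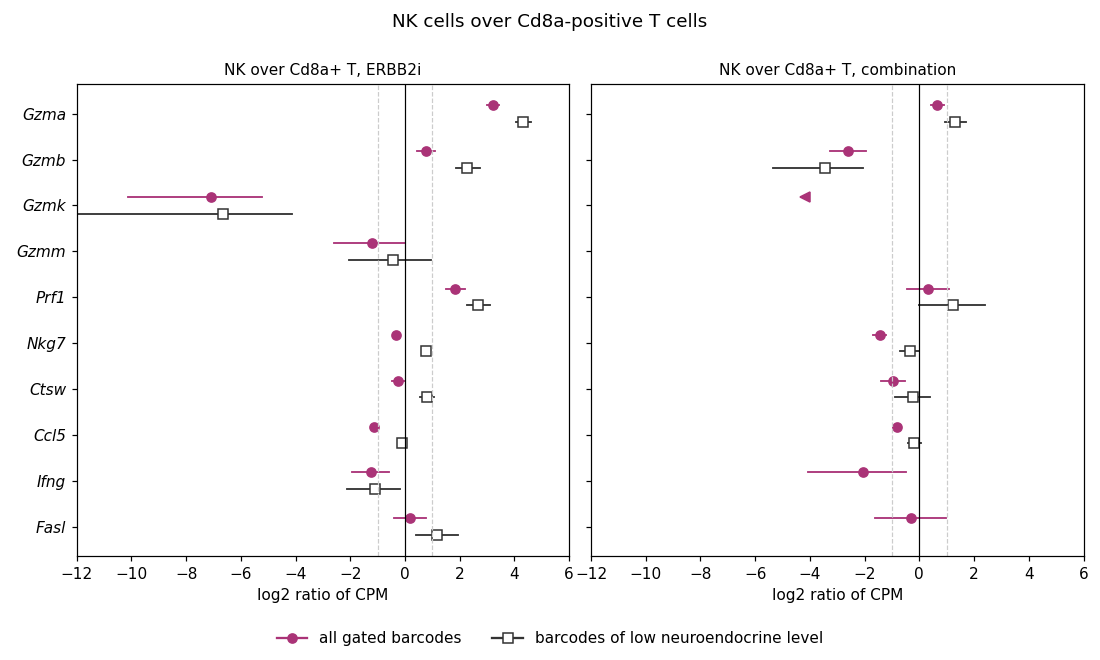
Log2 ratio of CPM in NK cells over Cd8a-positive T cells for each gene in ERBB2i and combination, with 95% intervals for counting error. Filled circles use all gated barcodes, open squares those with a neuroendocrine level under 30% of the tumour median, triangles mark ratios with 3 UMIs in place of 0, and dashed lines mark 2-fold. Gzma and Gzmk lie on opposite sides of 0 in both libraries.

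Other genes of NK and T cell killing, a list of receptors, transcription factors, granule and secretion genes, were read beside the 10. It shares Eomes, Tbx21, Klrd1 and Klrk1 with the NK marker list. In ERBB2i, 9 of 28 listed genes were at least 2-fold higher in NK cells (9.09% of genes tested) and 2 were lower (6.31%). By the largest ratio these were Klrc2, an NKG2 receptor, at 4.27 (3.18 to 5.62), the inhibitory receptor gene Klrg1 at 3.24 (2.17 to 4.52), Klrk1, which encodes the activating receptor NKG2D, at 2.23 (1.89 to 2.57), the T-box factor gene Tbx21 at 1.42 (0.84 to 2.03) and Serpinb9, which encodes an inhibitor of granzyme B, at 1.31 (0.74 to 1.90). In combination 3 of 21 listed genes were at least 2-fold higher in NK cells (6.47% of genes tested) and 7 were lower (7.19%). With at least 2 UMIs of the gate genes, 5 of 18 were higher there (7.01%) and 1 was lower (9.92%).

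Cd8a-positive cells were next set against Cd4-positive cells, with T cells carrying only one of the 2 genes. None of the genes tested was at least 2-fold lower in cells with Cd8a only, in any of the 4 libraries, against 3.34% of all genes tested in ERBB2i, 4.1% in combination, 5.35% in anti-PD-1 and 3.31% in combination in response. In anti-PD-1, where Gzmm, Prf1, Ifng and Fasl were not tested, 6 of 6 genes were at least 2-fold higher (8.19% of genes tested), with Gzma at 4.59 (3.53 to 5.92), Ccl5 at 4.09 (3.56 to 4.67), Gzmk at 2.96 (1.50 to 4.90) and Nkg7 at 2.89 (2.33 to 3.49). Gzmb gave 46 against 0 UMIs there, a log2 ratio of 3.41 when 0 is set to 3 UMIs. A single barcode held 42 of these Gzmb UMIs and 194 of the 244 Gzma UMIs, and without it Gzmb had too few UMIs to be tested and Gzma was at 2.31 (1.17 to 3.70). In ERBB2i, 7 of 10 were higher (4.34%), among them Gzmm at 2.60 (0.58 to 5.73), Ctsw at 1.80 (1.42 to 2.20) and Gzmb at 1.33 (0.74 to 1.96). Gzmk, Ifng and Fasl were the exceptions there, at 0.18 (-0.09 to 0.47), 0.28 (-0.32 to 0.90) and 0.39 (-0.37 to 1.19). In combination, without Gzmm and Fasl, 7 of 8 were higher (6.67%), with Gzma at 5.63 (3.76 to 8.68) and Gzmb at 3.91 (2.52 to 5.80), and Ifng was at 0.80 (-0.79 to 2.81). Gzmk was at 1.02 (0.08 to 2.10) there, and at -0.64 over barcodes of low neuroendocrine level. In combination in response, without Gzmb, Gzmk, Gzmm and Fasl, 4 of 6 were higher (3.78%), with Ccl5 at 5.64 (4.85 to 6.55), Nkg7 at 3.44 (2.92 to 4.01) and Prf1 at 2.21 (0.64 to 4.21), while Gzma was at 0.82 (-0.09 to 1.78) and Ifng at -0.43 (-1.49 to 0.61). The median over the genes tested was 1.21 in ERBB2i, 2.15 in combination, 3.18 in anti-PD-1 and 1.81 in combination in response, and 4 of 25, 9 of 19, 2 of 14 and 5 of 15 listed killing genes were at least 2-fold higher in that order. At least 2-fold lower were 3 of 25 listed genes in ERBB2i (3.34% of genes tested) and 0 in the other libraries.

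**Figure D3:**
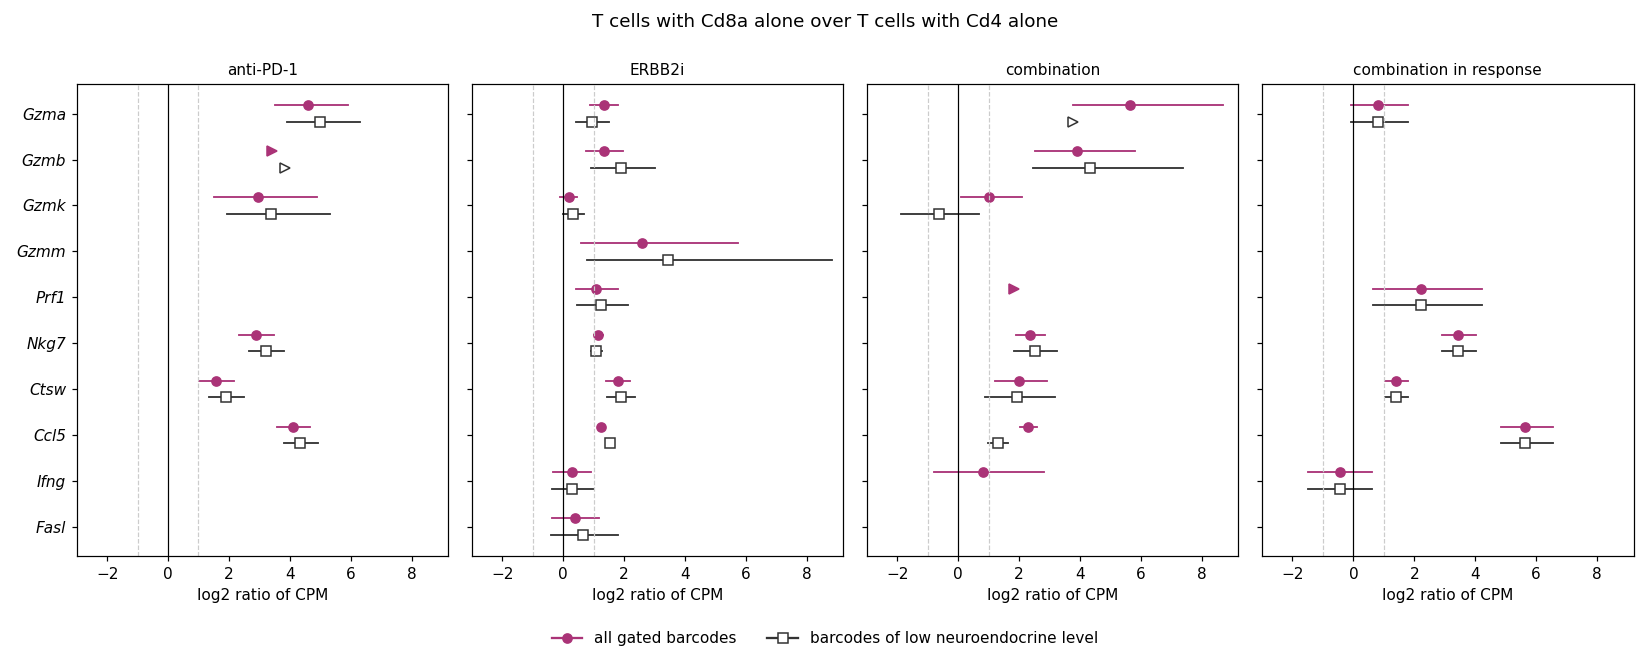
Log2 ratio of CPM in T cells with Cd8a only over T cells with Cd4 only, for each gene in 4 libraries, drawn as in the plot of NK over Cd8a-positive cells. Genes with fewer than 20 UMIs in both classes together are not drawn. In ERBB2i, Gzmk lies near 0 (0.18).

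The addition of anti-PD-1 to ERBB2i was read as combination over ERBB2i within each class. In NK cells Gzmk and Gzmm had too few UMIs to be tested, and the 8 other genes were all at least 2-fold lower in combination (12.7% of 8847 genes tested) and none was higher (6.17%), with a median of -1.52 against -0.09 over all genes. Perforin and granzyme B, the pair that delivers and acts in the target cell, had the lowest ratios, Prf1 at -2.14 (-2.71 to -1.61) and Gzmb at -2.01 (-2.69 to -1.39). Nkg7 was at -1.70 (-1.93 to -1.48), Ifng at -1.77 (-3.75 to -0.25), Fasl at -1.34 (-2.48 to -0.34), Gzma at -1.18 (-1.34 to -1.01), Ctsw at -1.12 (-1.52 to -0.74) and Ccl5 at -1.01 (-1.13 to -0.90). The NK marker list, which holds none of the 10 genes, was lower too (1542 against 4070 CPM), and 12 of 24 listed killing genes were at least 2-fold lower and 0 higher. Without barcodes of high neuroendocrine level, 32 NK cells of combination and 165 of ERBB2i remained, 6 of 7 genes were at least 2-fold lower (15.6% of genes tested), and Fasl was at -0.60 (-2.32 to 0.77). Of 22 listed killing genes 8 were then lower (500 of 3201 genes tested) and 4 higher (276 of 3201). NK markers were then at 5513 against 9792 CPM and myeloid markers at 3863 against 340 CPM. With 2 UMIs of the gate genes, 40 and 169 cells, 4 of 8 were at least 2-fold lower (12.7% of genes tested), the median was -0.88 and Gzma was at -0.37 (-0.55 to -0.20). The part of myeloid and tumour transcripts in the NK result was not tested.

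In Cd8a-positive cells the genes went in both directions. Gzma at 1.38 (1.12 to 1.64) and Gzmb at 1.35 (1.01 to 1.68) were at least 2-fold higher in combination (6.04% of 9049 genes tested), and Gzmk at -1.36 (-1.78 to -0.96) and Ccl5 at -1.30 (-1.38 to -1.22) at least 2-fold lower (9.06%). The other 6 genes lay between -0.95 for Ifng and -0.41 for Ctsw. The share of cells with a UMI after thinning moved with the level for Gzma, from 1.75% (0.759% to 3.42%) in ERBB2i to 12.3% (7.66% to 18.3%) in combination, but overlapped for Gzmb, at 5.25% (3.39% to 7.71%) and 7.36% (3.86% to 12.5%). A single combination barcode held 68 of the 164 Gzmb UMIs, and without it Gzmb was at 0.59 (0.20 to 0.98), under 2-fold. For Gzma the barcode with the most UMIs held 43 in combination and 59 in ERBB2i, and without either the ratio was 1.14 (0.87 to 1.42) or 1.81 (1.53 to 2.10). With barcodes of low neuroendocrine level only, 75 and 306 cells, Gzma was at 1.67 (1.31 to 2.04), Gzmb at 2.64 (2.20 to 3.09), Gzmk at -1.98 (-2.76 to -1.29) and Ccl5 at -1.13 (-1.25 to -1.01). Of 25 listed killing genes 7 were at least 2-fold lower and 0 higher. At low neuroendocrine level 2 of 22 were lower (658 of 6014 genes tested) and 4 higher (422 of 6014). With only the gene-number filter 1 of 27 was lower (710 of 9819) and 0 higher (431 of 9819). With all gated barcodes the largest ratios were those of Zeb2 and Eomes, transcription factor genes of effector cells, at -2.35 (-3.52 to -1.37) and -1.06 (-1.84 to -0.35), Ccl3 and Ccl4, which encode chemokines, at -1.39 (-2.60 to -0.36) and -1.19 (-1.56 to -0.83), and Rab27a, a gene of granule docking, at -1.08 (-1.96 to -0.29).

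In Cd4-positive cells 8 of the 9 genes other than Gzmm were at least 2-fold lower in combination (11.8% of 6520 genes tested), with Ctsw at -0.82 (-1.76 to 0.01) as the exception, and none was at least 2-fold higher (7.82%). Ccl5 was at -2.39 (-2.67 to -2.11), Gzmk at -2.18 (-3.21 to -1.30) and Nkg7 at -1.82 (-2.30 to -1.36). Prf1 and Fasl gave 0 UMIs in combination against 25 and 23 in ERBB2i, log2 ratios of -1.40 and -1.28 or lower by the same bound. Gzma was at -2.90 (-5.98 to -0.96), but 29 of its 47 UMIs in ERBB2i came from 1 barcode, and without it the ratio was -1.52 (-4.67 to 0.55). Only 66 cells of combination entered, of which 28 had a low neuroendocrine level. With low-level barcodes alone, 2 of 6 genes were at least 2-fold lower (14.1% of genes tested) and the median was -0.98.

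**Figure D4:**
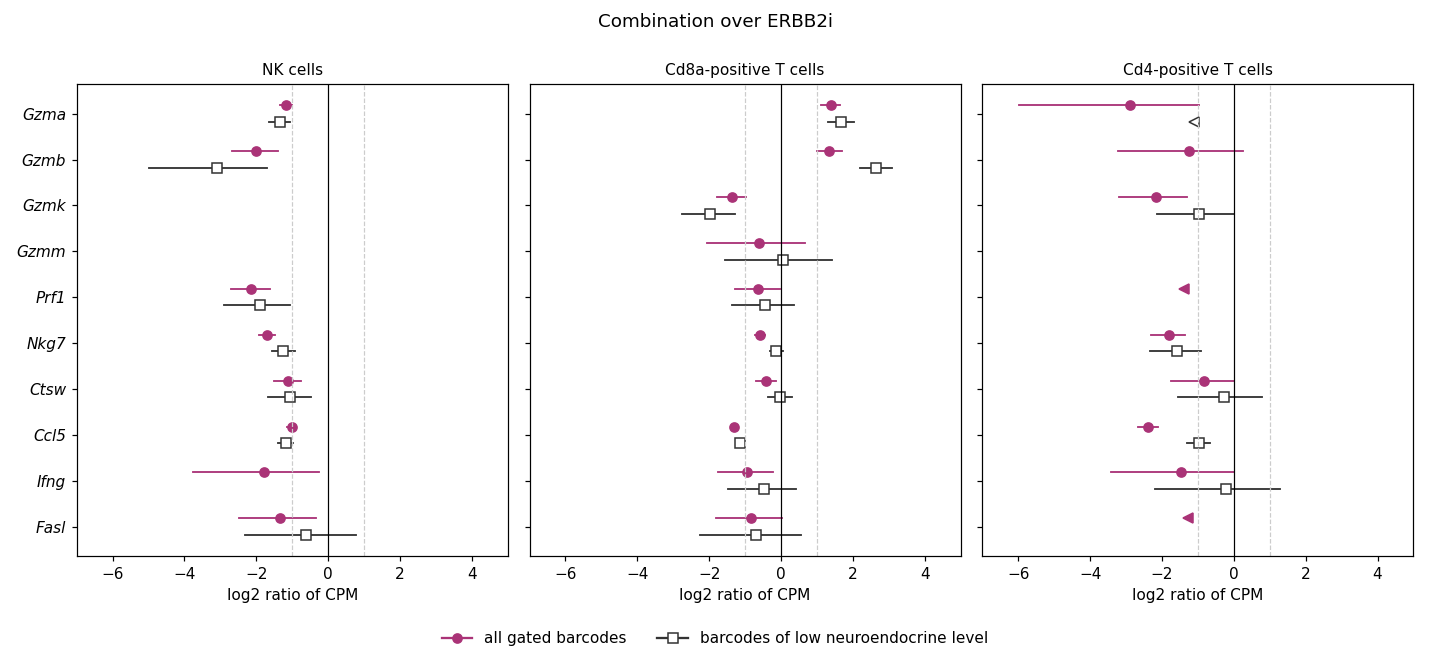
Log2 ratio of CPM in combination over ERBB2i for each gene in NK, Cd8a-positive and Cd4-positive cells, drawn as in the plot of NK over Cd8a-positive cells. In NK cells all filled circles lie at or below -1.01, and in Cd8a-positive cells Gzma and Gzmb lie above 1 and Gzmk and Ccl5 below -1.

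Combination in response was set against anti-PD-1, the only other library with a large population of Rag2 or Dntt-positive T cells. In Cd8a-positive cells, where Gzmm, Ifng and Fasl were not tested, 3 of 7 genes were at least 2-fold lower (14.8% of genes tested) and 0 were at least 2-fold higher (23.1%), with Gzma at -2.87 (-3.33 to -2.44), Gzmb at -2.49 (-3.54 to -1.55) and Gzmk at -2.04 (-2.96 to -1.19). The calls of Gzma and Gzmb, but not that of Gzmk, rested on 1 anti-PD-1 barcode of 4091 UMIs, which held 194 of 260 Gzma, 42 of 46 Gzmb and 17 of 45 Gzmk UMIs. Without it Gzma was at -0.90 (-1.45 to -0.36), Gzmb at 1.03 (-0.70 to 3.12) and Gzmk at -1.37 (-2.35 to -0.43). Of these Cd8a-positive cells, 125 in anti-PD-1 and 362 in combination in response also had Cd4, and the neuroendocrine panel stood at 941 and 5.80 CPM, whose part in the result was not tested. Prf1, Nkg7, Ctsw and Ccl5 differed by 0.80, -0.18, 0.29 and -0.40. In Cd4-positive cells Gzma, Nkg7, Ctsw, Ccl5 and Ifng were tested, and 1 of these 5 genes, Ifng at 3.40 (0.75 to 8.78) from 19 against 1 UMIs, was at least 2-fold higher (21.8% of genes tested) and 0 were lower (11.3%). Ccl5 was at 0.75 (0.17 to 1.37), but 84 of its 100 UMIs in combination in response came from 1 barcode, and without it the ratio was -1.89 (-2.85 to -0.99). In anti-PD-1 1 barcode held 18 of 33 Ccl5 UMIs, and without both barcodes the ratio was -0.75 (-1.86 to 0.37).

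Vehicle entered only when cells were filtered on gene number alone, which gave 32 NK and 36 Cd8a-positive cells with medians of 2334 and 2206 UMIs. Under the full filters it held 12 and 3 such cells. Most vehicle barcodes used here had thus failed a mitochondrial or MAD filter, and such barcodes were not scored for doublets. In NK cells, 5 of 8 genes were at least 2-fold higher in ERBB2i than in vehicle (19.3% of genes tested), Nkg7 at 1.49 (1.26 to 1.73), Ifng at 1.34 (-0.32 to 3.68), Prf1 at 1.24 (0.79 to 1.72), Fasl at 1.21 (0.10 to 2.58) and Ctsw at 1.04 (0.59 to 1.51), and none was at least 2-fold lower (7.64%). In combination 0 of 7 were higher (12.8%) or lower (8.38%) by 2-fold, with Gzma at -0.87 (-1.04 to -0.70) and a median of -0.65. Over barcodes of low neuroendocrine level the median was -1.64 and 6 of 7 were at least 2-fold lower (10.4%). In Cd8a-positive cells Gzma was at 2.18 (1.65 to 2.75) in combination over vehicle, 1 of 3 genes of 10 at least 2-fold higher (21.8%) beside Gzmb at 1.62 (0.94 to 2.39) and Gzmm at 1.52 (-1.11 to 6.89), and Gzmk, Ccl5 and Ifng were at least 2-fold lower (6.27%). In ERBB2i 1 of 10 was higher (20.2%), Gzmm from 34 against 1 UMIs, and 0 were lower (5.28%). In anti-PD-1 7 of 8 genes were at least 2-fold lower (10.3%), with Ccl5 at -3.90 (-4.01 to -3.80) and Nkg7 at -2.50 (-2.74 to -2.26), whereas Gzma was at -0.11 (-0.66 to 0.49). This Gzma ratio includes the single anti-PD-1 barcode with 194 Gzma UMIs. In combination in response 8 of 8 were lower (11.2%), with Gzmk at -4.62 (-5.43 to -3.85) and Ccl5 at -4.03 (-4.13 to -3.93). These comparisons share the vehicle cells, and those of ERBB2i and combination also cross the difference in barcode length.

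Per cell, several of the genes were found together most often in NK cells of ERBB2i. After thinning, at least 3 of the 10 genes were found in 48.7% (43.2% to 54.1%) of them, in 23.5% (16.1% to 32.3%) of NK cells of combination, in 28.4% (24.4% to 32.8%) and 25.2% (18.7% to 32.5%) of Cd8a-positive cells of ERBB2i and combination, and in 1.16% (0.560% to 2.13%) and 2.68% (1.43% to 4.54%) of those of combination in response and anti-PD-1. In NK cells of ERBB2i before thinning, Prf1 was found in 58.5% of the 176 cells with a Gzma UMI and in 6.92% of the 159 without, and Gzmb in 36.4% and 3.14%. Of 114 NK cells with Prf1, 90.4% also had Gzma. In Cd8a-positive cells of ERBB2i, Gzmb was found in 42.9% of 21 cells with Gzma and in 8.94% of those without, and Gzmk in 52.4% and 30.5%. NK cells with Gzma had a median of 1162 UMIs and those without 1985, while Cd8a-positive cells with Gzma had 2424 and those without 1502.

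**Figure D5:**
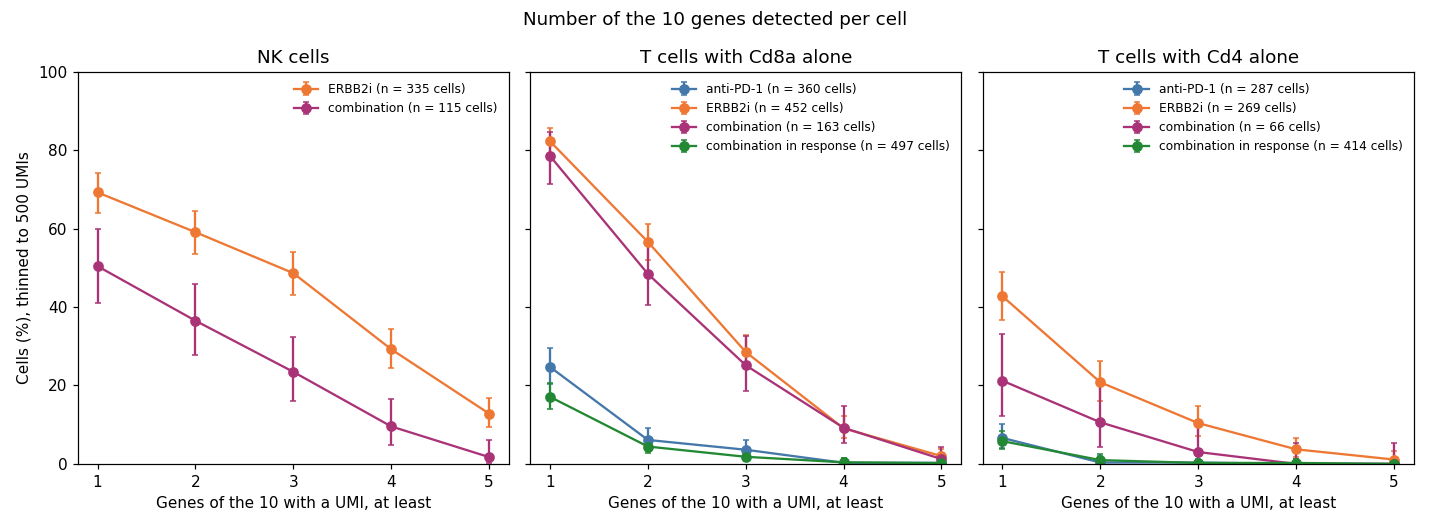
Share of cells by how many of the 10 genes had a UMI after thinning to 500 UMIs, for NK cells, T cells with Cd8a only and T cells with Cd4 only, in each library with at least 20 cells. The shares of Cd8a-positive cells in the text also count T cells with both genes. At least 3 genes were found in 48.7% of NK cells of ERBB2i and in 23.5% of those of combination.

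Cells with a UMI of the proliferation genes Mki67 or Top2a were compared with the rest. In NK cells of ERBB2i the 185 cells with such a UMI held 1589.8 CPM of Gzma and the 150 without held 3844, at -1.27 (-1.41 to -1.13), and Prf1 was at -1.80 (-2.16 to -1.45). In Cd8a-positive cells of ERBB2i, by contrast, Gzmb was higher with a proliferation UMI, at 0.88 (0.32 to 1.47), and Gzmk lower, at -0.67 (-0.99 to -0.35). Median depths were 2068 and 1039 UMIs in NK cells with and without such a UMI, and the part of depth and of tumour transcripts was not tested.

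Gzma alone of the 10 genes was also abundant in the T cells with Rag2 or Dntt, which the classes above leave out. These cells were 5259 of 8447 retained cells in combination in response and 3157 of 11256 in anti-PD-1. They held 91.8% of all Gzma UMIs of combination in response and 90.3% of all in anti-PD-1. For the other 9 genes their shares of UMIs were 21.4% (Ifng) to 73.3% (Gzmm, 11 of 15 UMIs) in combination in response. In anti-PD-1 those shares were 0% (Ifng) to 21.4% (Fasl). Gzma was at 403 CPM (391 to 416) in the 3157 cells of anti-PD-1 and at 153 CPM (145 to 161) in the 5259 of combination in response. In anti-PD-1 a Gzma UMI was found in 10.4% (9.32% to 11.5%) of them after thinning, against 0.351% of tumour-gated barcodes, and no cell held more than 49 UMIs. The level was highest in cells with neither Cd4 nor Cd8a, at 688 CPM in 553 cells, then 409 CPM in 1367 cells with Cd8a without Cd4, 197 CPM in 1063 cells with both and 132 CPM in 174 cells with Cd4 without Cd8a. In combination in response the cells with neither gene were again highest, at 343 CPM in 567 cells, and the other stages lay between 128 and 142 CPM. The other 9 genes were at 17.8 CPM (Nkg7) or less in anti-PD-1 and at 59.8 CPM (Ccl5) or less in combination in response.

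Outside the 10, the genes whose level followed the sum of the 10 most closely over 32 units of class and library were Gm2682 (Pearson's r = 0.907), Il2rb (0.907), which encodes a receptor chain for interleukins 2 and 15, Ms4a4b (0.888), AW112010 (0.883) and the NK receptor gene Klrd1 (0.872), among 14883 genes ranked on log2(CPM + 10). The units share libraries and depth, and the values are a description.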

How the data were processed

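The authors built libraries from tumours on the Singleron SCOPE-chip and made the matrices with CeleScope, while the submitters' processing notes name Cell Ranger, Scanpy and the build mm10. Neither source gives the pipeline version, the gene annotation or the use of strand. The deposited values are raw UMI counts per gene and barcode, not normalised. Groups came from the treatment label, with 1 library each, so no test was run.

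Barcodes were kept with more than 150 genes, at most 8% mitochondrial UMIs and no more than 3 median absolute deviations (MADs) over the median, and within 5 MADs for log UMIs, log genes and the share of the top 20 genes. Doublets were removed with Scrublet in scanpy 1.11.5, with the automatic threshold in anti-PD-1 and a fixed score of 0.25 elsewhere, where the automatic one marked under 0.5%. Barcodes that entered only under the gene-number filter alone were not scored for doublets. The study used SOLO. Total counts were 21624506 to 88497833 UMIs per library. UMIs were summed per class and library and given as CPM with exact Poisson intervals (scipy 1.17.1). Log2 ratios have exact conditional intervals. Where a sum was 0 the ratio was formed with 3 UMIs in its place, which gives no limit of a 95% interval. A gene was tested for passing 2-fold with at least 20 UMIs in both classes together. Shares were taken after thinning to 500 UMIs, with Clopper-Pearson intervals. All intervals are at 95% and cover counting error only. Listed killing genes were named by the 5 largest ratios among those with at least 50 UMIs in both classes together, in NK over Cd8a-positive cells of ERBB2i and in combination over ERBB2i in Cd8a-positive cells, and genes of like pattern by correlation among genes with at least 200 UMIs. Intervals and ratios were checked on simulated Poisson counts of class sums, a check that does not cover the uneven spread of UMIs over single barcodes. The members and lists were chosen with earlier results of these data known. Promoters and coordinates are from RefSeq on GRCm38.p6, matched by symbol, with promoters for 8 of the 10 genes. A division of T cells by a further marker set is not reported here.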

Additional observations from a re-analysis of the deposited data

How the results depend on the processing

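With 1 library per group, no library could be left out. No paired analysis was possible because each group holds 1 library and no ratio came from a test. Of 135 medians over the genes under an alternative, 104 stayed between the median lower and the median upper bound of the single genes, and 31 did not. These bounds are not a confidence interval of the median. Of 1307 single-gene ratios 1038 moved by less than their interval, 261 by more and 8 changed sign from a value past 2-fold. For 46 single-gene ratios a sum was 0 and no value was given. With at least 50 UMIs per gene in place of 20, 31 of 34 counts of all genes past 2-fold moved by over 1.5 times. The counts were 297 to 2084 higher and 249 to 1335 lower genes with 20 UMIs, and 68 to 1764 and 26 to 816 with 50. Fewer genes were then tested, but the range of shares of genes tested moved too. Shares higher were 3.78% to 25.5% with 20 UMIs and 1.47% to 31.3% with 50. Shares lower were 3.31% to 14.8% and 0.949% to 12.3%.

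For combination over ERBB2i the NK median was -0.88 with 2 UMIs per gate gene set and -2.79 with only the gene-number filter and low neuroendocrine level, an alternative chosen, like all on that level, after the data had been seen. The Cd8a-positive median was -0.051 with only the gene-number filter, -0.0485 with under 2 panel UMIs, and -0.0416 with the gene-number filter and low level. For combination in response over anti-PD-1 the Cd8a-positive median was -0.14 with only the gene-number filter, -0.21 with doublets kept and with single-positive gates, -0.58 with 2 UMIs, -0.0018 with gates after thinning, -0.94 with under 2 panel UMIs, -0.82 at low level, -0.78 at low level with single-positive gates and -0.56 at low level with the gene-number filter, and the Cd4-positive median was -0.66 with gates after thinning. In this comparison the low-level filter acted on anti-PD-1 only, where 395 of 485 Cd8a-positive cells remained. Combination in response kept all 859, as it had no tumour-gated barcode to set the level. For NK over Cd8a-positive cells the median in ERBB2i was 0.50 with 2 UMIs, 0.27 after thinning, 0.91 with under 2 panel UMIs, 0.79 at low level with either gate and 0.73 at low level with the gene-number filter. In combination these were 0.47, -0.27, -0.0794, -0.20 and -1.92, and -1.81 with the gene-number filter alone. Cd8a over Cd4 had a median of 1.91 in anti-PD-1 after thinning and 2.92 in combination at low level with the gene-number filter, and combination over vehicle in NK cells had -1.64 at low level. The cause of these shifts was not tested.

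Single ratios that changed sign were Gzma in combination over ERBB2i in Cd4-positive cells, 0.11 at low level with the gene-number filter, Gzmb in combination in response over anti-PD-1 in Cd8a-positive cells, 1.03 without 1 barcode, and, in NK over Cd8a-positive cells, Ccl5 in ERBB2i, 0.019 with under 2 panel UMIs, and Nkg7 in combination, 0.0442 with 2 UMIs. In Cd8a over Cd4 they were Ctsw in anti-PD-1, -0.34 after thinning, Gzma in ERBB2i, -0.053 with under 2 panel UMIs, and Gzmk in combination, -0.64 at low level with either gate. Not run, for want of cells, were gates after thinning (17 cells) and under 2 panel UMIs (19 cells) in Cd4-positive cells of combination, and for ratios to vehicle the scaling, neuroendocrine, free RNA and UMI minimum alternatives were run and the others were not. Depth limits Gzmm, Ifng and Fasl, whose sums in most classes were under 60 UMIs.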
